A study of Homo sapiens with 6 samples.

Results

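The mitochondrial protein import machinery was examined by RNA-seq in A549, a cell line from a human lung adenocarcinoma, labelled as alveolar epithelial. Its members were taken from the gene count table by name: every protein-coding gene called TIMM or TOMM with a number, 25 in all, and 12 further genes named singly, giving 37 of 19951 protein-coding genes (58735 genes of all kinds). The 6 libraries were 3 of cells given paraquat together with SS-31 (PQ+SS-31) and 3 of cells given paraquat alone (PQ), each labelled 48 h. Paraquat is a redox-cycling herbicide whose cycling yields superoxide, and SS-31 is a peptide that binds cardiolipin, a lipid of the mitochondrial inner membrane. Both groups carry the paraquat treatment, the labels name no doses, and no untreated library was analysed, so only the addition of SS-31 is compared.

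Nearly all mitochondrial proteins are encoded in the nucleus, made in the cytosol and imported. The TOM complex of the outer membrane is the common entry gate. From there the SAM complex inserts barrel-shaped proteins into the outer membrane, a disulfide relay traps small proteins between the membranes, the TIM22 complex inserts carriers into the inner membrane, and the TIM23 complex with its ATP-driven motor passes proteins with a cleavable presequence into the matrix. In yeast, cardiolipin is needed for normal function of the inner membrane translocases.

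TIMM23, the channel gene of the TIM23 complex, has a near copy, TIMM23B, on the same chromosome, and the coding sequences are shown because counts of such copies can be split or lost. Over the bases that align between the coding parts of transcripts TIMM23-201 and TIMM23B-201, 96.3% are identical, with 21 mismatches. A further 63 coding bases of TIMM23-201 fall in gaps of the alignment. The stretch below, 120 coding bases from base 9 to base 128 counted from the start codon (GENCODE 29 transcripts, GRCh38, plus strand of chromosome 10), holds the most mismatches of any ungapped stretch of its length. Stretches that touch a gap were passed over, so it need not be where the copies differ most. The coding parts, introns included, span 45972625 to 46003315 for TIMM23 and 49942195 to 49973061 for TIMM23B. Capitals mark the 4 bases that differ, A25G, G41T, G68A and C128G from TIMM23 to TIMM23B.
TIMM23: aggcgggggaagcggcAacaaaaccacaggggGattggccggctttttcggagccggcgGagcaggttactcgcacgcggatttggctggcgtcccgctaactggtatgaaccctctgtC
TIMM23B: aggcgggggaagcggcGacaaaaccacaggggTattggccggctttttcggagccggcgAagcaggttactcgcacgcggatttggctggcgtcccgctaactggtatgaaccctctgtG

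Library totals ranged from 16332061 to 17576827 counts. Of 5 epithelial markers, 4 were above 1 CPM (CPM is counts per 1e6 library counts, scaled by TMM factors), with KRT8 and KRT18 the most abundant, while EPCAM stayed below 1 CPM. Of the alveolar type II markers, ABCA3 was detected at 91.6 to 132 CPM, NKX2-1 had 0 counts and SFTPB, SFTPC and SFTPA1 stayed below 1 CPM, so the epithelial markers of the label were mostly present and most type II markers were at or near 0. The summed epithelial markers were at 2306 to 2681 CPM in PQ+SS-31 and 1637 to 1889 CPM in PQ, mostly KRT8, and the endothelial and blood markers each summed to less than 1 CPM. The 3 fibroblast markers summed to 10.93 to 20.03 CPM in PQ+SS-31 and 9.17 to 16.9 CPM in PQ, nearly all of it COL1A1. The part of these marker levels in the results below was not tested. Whether the replicates were grown as separate cultures is not stated, and each p-value therefore reflects only variation among these samples, possibly technical. In bulk RNA, fewer cells of a kind and less RNA per cell cannot be told apart. The principal component with most variance (39.4%) ran within the groups. The second component (23.5%) set the groups apart, at -21.3 to -10.3 in PQ+SS-31 and 13.2 to 22.6 in PQ. Counts of called genes moved with each library left out.

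Addition of SS-31 was not accompanied by a detectable change in any import gene. Of the 37 members, 35 passed the filter on low counts. With edgeR (quasi-likelihood, p-values adjusted over all genes tested), 0 of these 35 passed an adjusted p of 0.05 in either direction, against 92 of all 15550 tested genes (0.592%), of which 20 were higher in PQ+SS-31 (0.129%) and 72 lower (0.463%). DESeq2 and limma-voom also called 0, with the adjusted p of TOMM5 not defined in DESeq2. At an unadjusted p of 0.05, 0 members were higher and 1, HSPA9, was lower, against 5.62% and 5.94% of all tested genes. The median log2 fold change was 0.05 over the members and 0.00 over all tested genes, with 22 members positive and 13 negative. The median size of the change, regardless of sign, was 0.105 for members and 0.137 for all tested genes.

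The 95% intervals show how large a change these libraries leave possible. For 32 of the 35 tested members the interval lay within a 1.5-fold change either way. The exceptions were TOMM5, which had few counts, TOMM7, which varied between replicates of each group, and PAM16. PAM16 had low counts and also varied between the PQ replicates, with 14, 36 and 65 counts, against 54, 48 and 58 in PQ+SS-31.

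**Figure D1:**
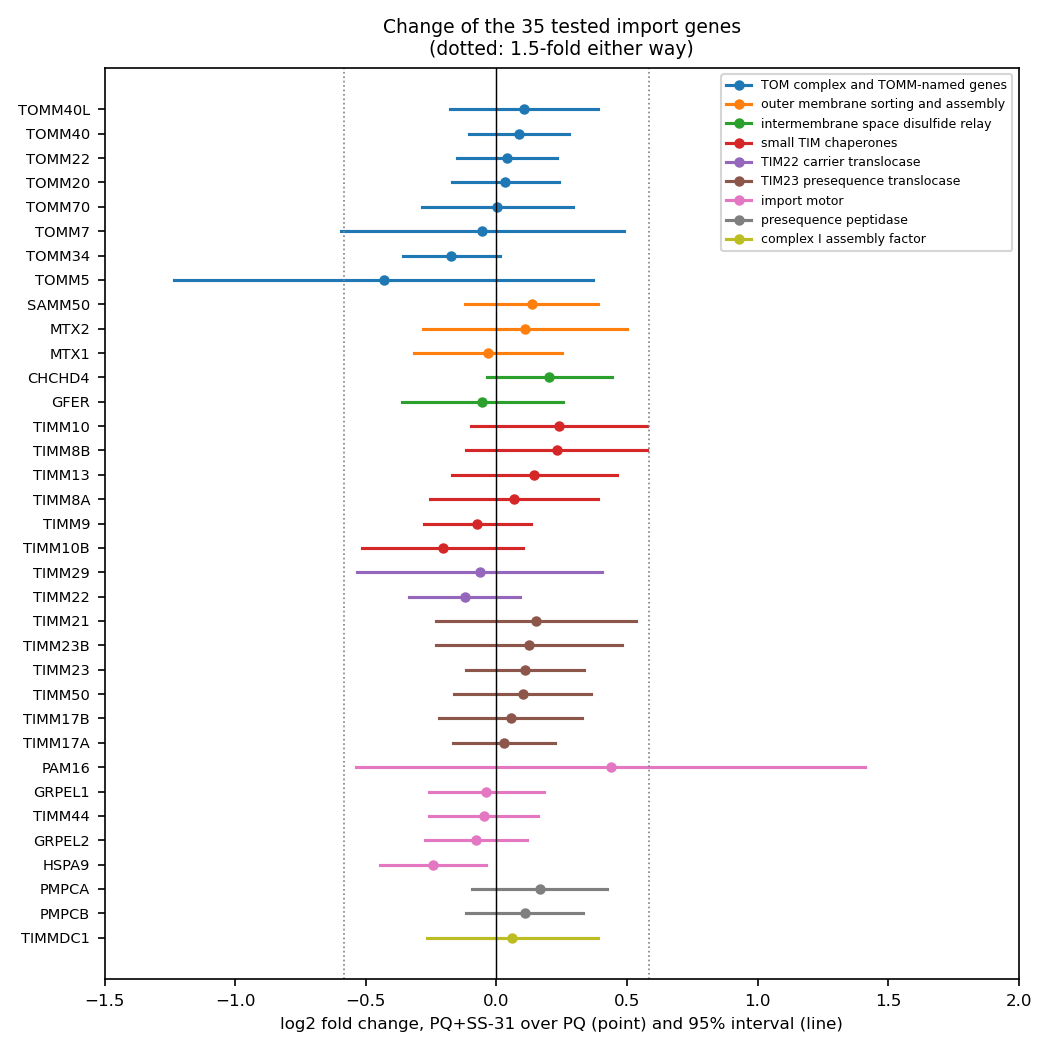
Log2 fold change of PQ+SS-31 over PQ for the 35 tested import genes (points) with 95% intervals from the edgeR fit (lines), coloured by role, and dotted lines at 1.5-fold. The points lie between -0.43 (TOMM5) and 0.44 (PAM16), and HSPA9 is the only gene whose interval does not reach 0.

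Among the entry-gate genes, TOMM20, a receptor for presequences, was the most abundant per length. Its level was 61.4 ± 3.90 CPM per kilobase (kb) of gene length in PQ+SS-31 and 59.9 ± 2.98 in PQ (SD, n = 3 each). TOMM40, the pore-forming barrel (chromosome 19, 44890569 to 44903689, GRCh38), followed at 42.5 ± 2.18 CPM per kb in PQ+SS-31 and 40.1 ± 1.85 in PQ. The carrier receptor TOMM70 and the central receptor TOMM22 stood at 24.4 and 19.1 CPM per kb over all 6 libraries. TOMM20 had 201.5, 225.1 and 225.8 CPM in the PQ+SS-31 libraries (replicates 1 to 3, as in all such lists), against 214.8, 221.4 and 200.7 CPM in PQ. TOMM40 had 159, 157.1 and 144.5 CPM in PQ+SS-31, against 152.3, 140.7 and 140.7 CPM in PQ. In both genes the groups overlapped. By the longest transcript in place of the deposited gene length, TOMM7 stood above TOMM40, at 51.7 and 43.6 CPM per kb over all 6 libraries, and TIMM50 had 71.6 in place of 26.7 and ranked 2 after HSPA9. TOMM22 had a ratio of 1.12 between its highest and lowest library.

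TOMM34, a cytosolic co-chaperone that binds precursors with HSP70 and HSP90 and is no TOM subunit, was 1 of 2 members whose PQ+SS-31 libraries all lay below those of PQ. It had 59.0, 61.3 and 64.6 CPM in PQ+SS-31, against 70.5, 71.1 and 66.9 CPM in PQ. Its log2 fold change was -0.17 ± 0.08 (SE), with a 95% interval of -0.36 to 0.01 (edgeR adjusted p = 0.477).

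TOMM5, TOMM6 and TOMM7 are small TOM subunits that stabilise the gate. TOMM7 had 52.6, 31.2 and 34.6 CPM in PQ+SS-31, against 42.5, 28.7 and 51.7 CPM in PQ. It thus varied 1.83-fold over the libraries, with its spread inside each group, and its fold change had an interval of -0.59 to 0.49 on the log2 scale. TOMM5 had only 81 counts in all 6 libraries together, at 0.683 ± 0.149 CPM in PQ+SS-31 and 0.924 ± 0.133 CPM in PQ (SD, n = 3 each). TOMM6 had 0 counts in every library.

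The gene models bear directly on these low values. All 637 exonic bases of TOMM6 (chromosome 6, 41787662 to 41789898, GRCh38) lie inside exons of AL365205.1, an overlapping gene on the same strand, which itself had 301 counts over the 6 libraries. Of the coding transcripts of TOMM5, 71.0% to 84.2% of the bases lie in exons of other genes on the same strand, and of those of PAM16, 52.6% to 89.9%. The genes that overlap TOMM5, AL138752.2 and AL513165.2, had 2 and 0 counts over the 6 libraries, and CORO7-PAM16, which overlaps PAM16, had 0. No other member had a coding transcript overlapped on its own strand by more than 37.1%, the value for TIMM10B. The labels do not say how reads in shared exons were counted, so the levels of TOMM6, TOMM5 and PAM16 were not read as expression. The library strand is not stated either. On the opposite strand, other genes covered up to 45.7% of the coding transcript bases of TIMM8B, 34.3% of TIMM9 and 33.3% of TIMMDC1. For GFER, TOMM20L, PMPCB, TOMM40L, GRPEL2 and MTX1 the highest shares lay between 22.8% and 27.9%, and some other members had smaller ones. The levels of these genes are uncertain, by an amount that the shares do not give.

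TOMM20L and TOMM40L are paralogs of TOMM20 and TOMM40. TOMM20L did not pass the filter, with 4, 3 and 2 counts in PQ+SS-31, against 4, 5 and 11 counts in PQ. TOMM40L was tested, with 14.58, 13.12 and 13.27 CPM in PQ+SS-31, against 12.52, 13.97 and 11.63 CPM in PQ. Per length, TOMM40 was 10.3 ± 0.567 times as abundant as TOMM40L in PQ+SS-31 and 10.4 ± 1.08 times in PQ (SD, n = 3 each), so the paralog was the minor form in every library.

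**Figure D2:**
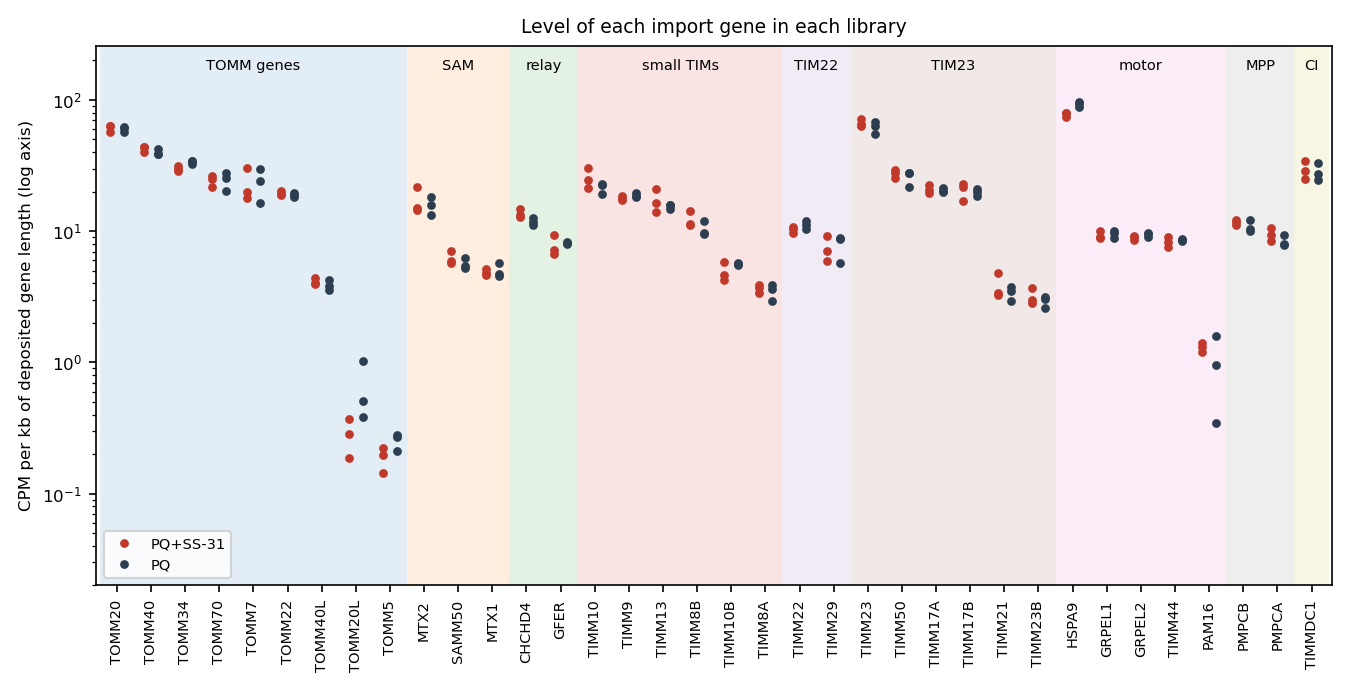
Level of each import gene with counts, as CPM per kb of deposited gene length on a log axis, with 1 point per library (PQ+SS-31 left and PQ right of each gene) and shading by role (SAM, outer membrane sorting and assembly; relay, disulfide relay; MPP, presequence peptidase; CI, complex I assembly factor). On this length HSPA9, TIMM23 and TOMM20 have the highest levels and TOMM5 and TOMM20L the lowest; TOMM6, at 0, cannot be drawn.

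In the sorting and assembly machinery of the outer membrane, SAMM50 is the barrel that inserts other barrels, and the metaxins MTX1 and MTX2 are its partners on the cytosolic side. SAMM50 had 37.0, 38.1 and 45.1 CPM in PQ+SS-31, against 33.9, 40.5 and 35.2 CPM in PQ. Its log2 fold change was 0.13 ± 0.11 (SE). MTX2 had 37.0, 25.7 and 25.0 CPM in PQ+SS-31, against 27.2, 23.0 and 31.2 CPM in PQ, with PQ+SS-31 replicate 1 the highest. MTX1 had 15.85, 15.26 and 16.88 CPM in PQ+SS-31, against 15.48, 14.98 and 18.61 CPM in PQ. It was the less abundant metaxin per length, at 0.296 ± 0.0658 of the level of MTX2 in PQ+SS-31 and 0.317 ± 0.0217 in PQ. The MTX1 values are uncertain because its pseudogene MTX1P1 took 1310 counts over the 6 libraries, against 1639 for MTX1.

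The disulfide relay has an oxidoreductase, CHCHD4, that folds cysteine-rich proteins on arrival, and a sulfhydryl oxidase, GFER, that reoxidises it. CHCHD4 (chromosome 3, 14112077 to 14124870, GRCh38) was the only member whose PQ+SS-31 libraries all lay above those of PQ. It had 26.1, 23.7 and 22.6 CPM in PQ+SS-31, against 20.6, 19.9 and 22.4 CPM in PQ, so the nearest libraries of the groups differed by little. Its log2 fold change was 0.20 ± 0.11 (SE), with a 95% interval of -0.04 to 0.44 (edgeR adjusted p = 0.521). GFER had 25.3, 19.4 and 18.2 CPM in PQ+SS-31, against 21.8, 22.2 and 21.3 CPM in PQ, and the groups overlapped. Groups that did not overlap were thus seen in 3 of the 35 tested members, or 8.57%, against 18.0% of all tested genes. That was 1 member above, where the share of all tested genes was 9.16%, and 2 below, where it was 8.86%.

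The small TIM chaperones carry hydrophobic precursors between the membranes. TIMM9 with TIMM10 and TIMM8A with TIMM13 form the known hexamers, TIMM8B is a relative of TIMM8A, and TIMM10B sits with the TIM22 complex. Of these 6 genes, 4 had positive and 2 negative fold changes, and their summed level was 122 ± 15.2 CPM in PQ+SS-31 and 117 ± 4.46 CPM in PQ. TIMM10 had 23.5, 18.9 and 16.6 CPM in PQ+SS-31, against 17.7, 14.9 and 17.4 CPM in PQ. Its log2 fold change was 0.24 ± 0.15 (SE, edgeR adjusted p = 0.609). TIMM8B, at 16.7, 13.1 and 12.9 CPM in PQ+SS-31, against 11.4, 11.1 and 13.9 CPM in PQ, had a similar 0.23 ± 0.15 (SE, edgeR adjusted p = 0.640). TIMM10B had a negative log2 fold change of -0.21, with 17.59, 14.07 and 12.92 CPM in PQ+SS-31, against 17.4, 16.9 and 17.2 CPM in PQ. In TIMM10, TIMM8B and TIMM10B alike, the groups overlapped and PQ+SS-31 replicate 1 was the highest of its group.

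Per length the ratio of TIMM10 to TIMM10B was 5.227, 5.268 and 5.025 in PQ+SS-31, against 3.981, 3.445 and 3.980 in PQ. These groups did not overlap, with means of 5.173 ± 0.130 in PQ+SS-31 and 3.802 ± 0.309 in PQ (SD, n = 3 each). Among the 10 paralog or partner pairs compared, it was the only such ratio (10.0% of these pairs), and no test was made of it. Ratios of other gene pairs were not computed, and single genes whose groups did not overlap were 18.0% of all tested genes. That 1 of the 10 pairs separated was therefore not read as a result about these genes. Coding transcripts of TIMM10B share 14.5% to 37.1% of their bases with a same-strand gene, AC084337.2, so the TIMM10B level is uncertain. TIMM8A had 13.77, 13.01 and 11.93 CPM in PQ+SS-31, against 13.65, 10.37 and 12.91 CPM in PQ. Per length it stood at 0.301 ± 0.0278 of TIMM8B in PQ+SS-31 and 0.336 ± 0.0510 in PQ.

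**Figure D3:**
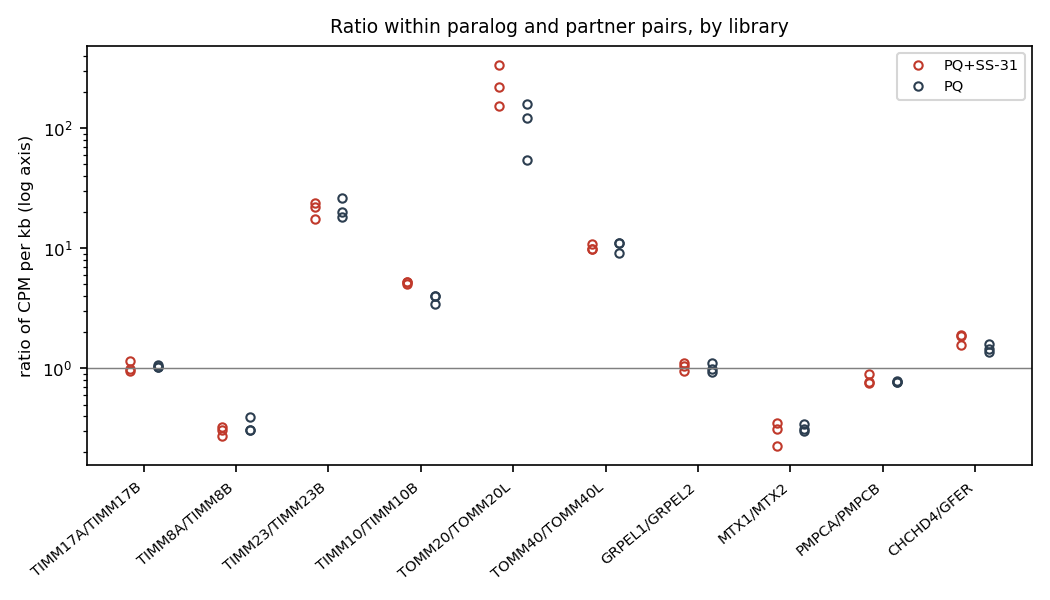
Ratio of CPM per kb within 10 paralog or partner pairs in each library, on a log axis, with PQ+SS-31 left and PQ right of each pair and a line at equal levels. Only TIMM10 over TIMM10B separates the groups, at 5.025 to 5.268 in PQ+SS-31 and 3.445 to 3.981 in PQ.

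In the carrier translocase neither gene passed the test, and their summed level was 46.6 ± 3.18 CPM in PQ+SS-31 and 50.1 ± 5.46 CPM in PQ. TIMM22, its channel subunit, had 33.1, 31.2 and 34.1 CPM in PQ+SS-31, against 35.6, 33.2 and 38.1 CPM in PQ (log2 fold change -0.12 ± 0.09, SE). TIMM29, a subunit found in animals, ranged from 11.06 to 17.18 CPM in PQ+SS-31 and from 10.75 to 16.46 CPM in PQ, with means of 13.83 and 14.45 CPM.

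All 6 genes of the presequence translocase had positive log2 fold changes, from 0.03 to 0.15, and 0 passed the test. The shared sign did not hold with a library left out: without PQ+SS-31 replicate 1 the values were -0.02 for TIMM17A, -0.03 for TIMM17B and -0.04 for TIMM21, and without PQ replicate 3 TIMM50 was at -0.01. TIMM17B was also at -0.00205 with the replicate block and offsets for GC content and length, while TIMM23 and TIMM23B stayed positive in all 18 alternatives. Their summed level was 428 ± 18.6 CPM in PQ+SS-31 and 403 ± 24.1 CPM in PQ (SD, n = 3 each). TIMM50, the receptor that takes over presequences from TOM, was the most abundant in CPM, at 191 ± 13.9 in PQ+SS-31 and 178 ± 23.9 in PQ. It had 176.2, 203.9 and 192.7 CPM in PQ+SS-31, against 190.3, 193.5 and 150.5 CPM in PQ, and PQ replicate 3 was the lowest library. The channel gene TIMM23 was also lowest in PQ replicate 3, with 80.4, 87.2 and 77.9 CPM in PQ+SS-31, against 77.4, 82.6 and 67.5 CPM in PQ. TIMM17A and TIMM17B are alternative partners of the channel. TIMM17A had 78.8, 72.39 and 68.93 CPM in PQ+SS-31, against 71.01, 69.67 and 74.85 CPM in PQ. TIMM17B had 58.61, 55.52 and 43.49 CPM in PQ+SS-31, against 50.84, 47.48 and 53.39 CPM in PQ. Both overlapped between the groups, and their ratio per length was 1.03 ± 0.111 in PQ+SS-31 and 1.04 ± 0.0287 in PQ. With the longest transcript as the length that ratio was 0.858 over all 6 libraries, so which partner is the more abundant depends on the length used. TIMM21, which links TIM23 to TOM and the respiratory chain, had 24.94, 17.64 and 16.94 CPM in PQ+SS-31, against 18.39, 15.43 and 19.71 CPM in PQ, again with PQ+SS-31 replicate 1 the highest.

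In the stretches of TIMM23 and TIMM23B printed above, only 4 bases tell the copies apart, while 21 differ over all aligned coding bases, gaps aside. The ratio of TIMM23 to TIMM23B per length was 21.3 ± 3.18 in PQ+SS-31 and 21.5 ± 4.14 in PQ, and it is uncertain to the extent that reads were shared between the copies. TIMM23B had 11.34, 9.145 and 8.732 CPM in PQ+SS-31, against 9.552, 7.902 and 9.305 CPM in PQ.

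In the import motor, HSPA9 (mortalin) is the matrix HSP70 whose ATP cycle pulls precursors inward and helps them fold. HSPA9 (chromosome 5, 138553756 to 138575724, GRCh38) was the most abundant import gene, at 78.2 ± 3.49 CPM per kb in PQ+SS-31 and 92.5 ± 4.39 in PQ (SD, n = 3 each). It had 612, 662.2 and 661.7 CPM in PQ+SS-31, against 770.6, 795.8 and 724.3 CPM in PQ. Every PQ+SS-31 library lay below every PQ library. The log2 fold change was -0.24 ± 0.09 (SE), or 0.845-fold, with a 95% interval of 0.734-fold to 0.973-fold. By edgeR its unadjusted p was 0.0247 and its adjusted p 0.335, so it did not pass over all genes.

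GRPEL1 and GRPEL2 are the exchange factors that release the nucleotide of HSPA9. GRPEL1 had 42.06, 37.41 and 36.97 CPM in PQ+SS-31, against 42.06, 36.92 and 40.53 CPM in PQ. GRPEL2 had 39.8, 37.59 and 40.98 CPM in PQ+SS-31, against 39.93, 41.85 and 43.09 CPM in PQ. In both the groups overlapped. TIMM44, which tethers the motor to the channel, was at 40.5 ± 3.35 CPM in PQ+SS-31 and 41.9 ± 0.876 CPM in PQ. Whether HSPA9 differed from its partners was not tested. PAM16, which regulates the J-domain partner of HSPA9, had 3.12, 2.85 and 3.38 CPM in PQ+SS-31, against 0.831, 2.28 and 3.78 CPM in PQ, within the limit of its gene model given above.

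**Figure D4:**
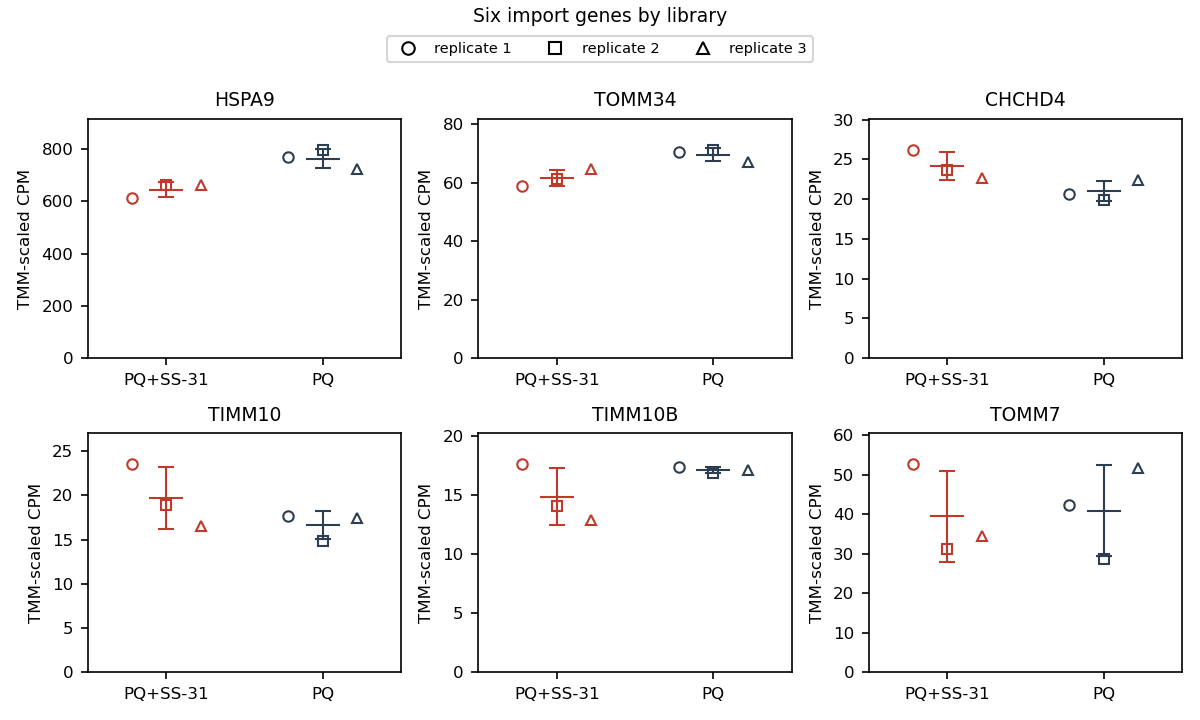
TMM-scaled CPM of 6 import genes in each library, with 1 marker shape per replicate number and the mean and SD of each group (bars). The groups do not overlap for HSPA9, TOMM34 and CHCHD4, and overlap for TIMM10, TIMM10B and TOMM7.

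HSPA9 was the largest single term in the summed level of the machinery. Over the 37 members the sum was 2357, 2362 and 2346 CPM in PQ+SS-31, against 2450, 2447 and 2366 CPM in PQ. Without HSPA9 the order turned, to 1745, 1699 and 1684 CPM in PQ+SS-31, against 1680, 1651 and 1641 CPM in PQ. In both sums the nearest libraries of the groups lay only a few CPM apart. HSPA9 is also the member with the smallest p, so leaving it out was not a choice independent of these values.

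The subunits of the matrix peptidase that removes presequences are PMPCA and the catalytic PMPCB. PMPCA had 62.1, 55.2 and 69.6 CPM in PQ+SS-31, against 52.4, 52.1 and 62.0 CPM in PQ, and a log2 fold change of 0.17 ± 0.11 (SE). PMPCB had 59.4, 53.8 and 56.6 CPM in PQ+SS-31, against 50.2, 48.5 and 58.7 CPM in PQ, and a log2 fold change of 0.11 ± 0.10 (SE). In both genes PQ replicate 3 reached into the range of PQ+SS-31. Their ratio per length was 0.808 ± 0.0821 in PQ+SS-31 and 0.776 ± 0.0104 in PQ. TIMMDC1, a complex I assembly factor with a TIM-like name, had 94.3, 68.29 and 78.77 CPM in PQ+SS-31, against 74.1, 66.82 and 90.37 CPM in PQ.

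The remaining tested members were TIMM13, at 33.8 ± 6.80 CPM in PQ+SS-31 and 30.5 ± 1.04 CPM in PQ, and TIMM9, at 26.7 ± 0.828 CPM in PQ+SS-31 and 28.1 ± 0.959 CPM in PQ. Their log2 fold changes were 0.15 and -0.07.

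In 33 of the 35 tested members the range inside at least 1 group was larger than the difference of the group means on the log2 scale. The same count was not made over all tested genes, so it was not read as a trait of the members. Differences inside the groups were shared among members. For PQ+SS-31 replicate 1 over replicate 2, and PQ replicate 3 over replicate 2, 22 members were positive in both and 10 negative in both. These pairs were chosen after their values were seen. Pearson r across the members was 0.732 (n = 35 genes), a description, since all members come from the same 4 libraries. TOMM7 was at the top with differences of 0.75 and 0.85 on the log2 scale, followed in the second pair by PAM16 (0.70) and TIMM29 (0.61), and TOMM70 had -0.29 and -0.44, the lowest in the second pair. TOMM5 was the lowest in the first pair, at -0.38. With transcript length the same differences had a Spearman rho of -0.37 in each pair over the members and of -0.376 and -0.403 over 15541 tested genes. A likeness of these libraries was also seen over all tested genes, in their deviations from group means. PQ+SS-31 replicate 1 correlated at 0.292 with PQ replicate 3 and at -0.281 with PQ replicate 2. For PQ+SS-31 replicate 2 these correlations were -0.457 and 0.392. The pattern was thus not particular to the import genes. The share of counts from the mitochondrial genome was 8.39%, 12.6% and 12.6% in PQ+SS-31 replicates 1, 2 and 3 and 9.95%, 11.9% and 9.07% in PQ replicates 1, 2 and 3. The part of length and of that share in these differences was not tested.

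**Figure D5:**
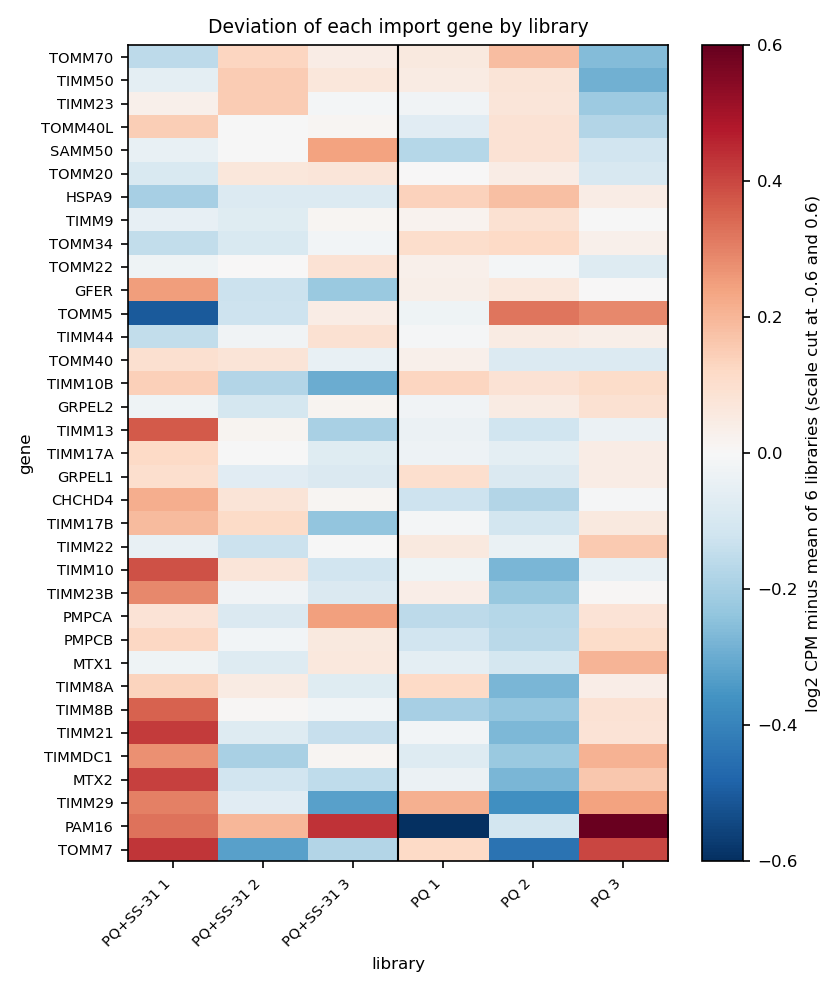
Deviation of each tested import gene from its mean over the 6 libraries (log2 CPM, colour cut at -0.6 and 0.6), with genes ordered by the difference between PQ replicates 3 and 2, and PQ+SS-31 left of PQ. PQ+SS-31 replicate 1 and PQ replicate 3 share their high genes at the bottom, among them TOMM7 and TIMM29, and HSPA9 is low across PQ+SS-31.

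Genes that work beside the import machinery were read from the same fit. Among all tested genes, 18.0% had groups that did not overlap. Most genes named below were picked by smallest p, which favours such groups. Of 18 tested matrix chaperones and proteases, 0 passed and 12 were positive, with a median log2 fold change of 0.03. TRAP1, the matrix relative of HSP90, had 108.2, 116.5 and 125.3 CPM in PQ+SS-31, against 97.7, 94.7 and 93.6 CPM in PQ. Its groups did not overlap, and its log2 fold change was 0.29 ± 0.09 (SE, edgeR adjusted p = 0.217). OMA1, a stress-activated inner membrane protease, had 12.27, 10.69 and 9.838 CPM in PQ+SS-31, against 10.38, 8.092 and 8.549 CPM in PQ.

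Of 18 other genes of the motor, of insertion and of inner membrane organisation, 0 passed, 15 were positive and the median was 0.08. Leaving out PQ+SS-31 replicate 1 gave 0.04, and leaving out replicate 2 of that group gave 0.12. DNAJC15, a J-domain partner of HSPA9, had 2.141, 2.197 and 3.085 CPM in PQ+SS-31, against 1.365, 1.012 and 1.977 CPM in PQ (log2 fold change 0.76 ± 0.32, SE, edgeR adjusted p = 0.404). AIFM1, which anchors CHCHD4, had 95.81, 93.83 and 92.1 CPM in PQ+SS-31, against 80.98, 87.81 and 87.29 CPM in PQ (edgeR adjusted p = 0.571). In DNAJC15 and AIFM1 the groups did not overlap, but DNAJC15 had few counts, reaching at most 3.085 CPM. Among 12 cytosolic factors that handle precursors, 0 passed, 4 were positive and the median was -0.03 (0.000153 without PQ+SS-31 replicate 1). HSPA8, the constitutive cytosolic HSP70, had 854, 957 and 937 CPM in PQ+SS-31, against 1065, 1199 and 898.6 CPM in PQ. ATAD1, an outer membrane extractor of misplaced proteins, had 118.9, 128.6 and 125.3 CPM in PQ+SS-31, against 133.7, 152.1 and 131.1 CPM in PQ. HSPA8 overlapped between the groups and ATAD1 did not.

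Import failure is known to be reported through the integrated stress response and through PINK1. Of 9 genes of this surveillance, 0 passed in the edgeR fit and 3 were positive, with a median of -0.05. DDIT3, the stress transcription factor CHOP, had the smallest p, with 14.4, 9.32 and 8.91 CPM in PQ+SS-31, against 16.7, 19.4 and 25.8 CPM in PQ. Its groups did not overlap, and its log2 fold change was -0.92 ± 0.22 (SE, edgeR adjusted p = 0.131). It passed with DESeq2 (adjusted p = 0.00652), and in edgeR without the filter on low counts (adjusted p = 2.58e-06) and with offsets for GC content and length (adjusted p = 0.0216). With these offsets and the replicate block it also passed (edgeR adjusted p = 0.0148). It did not pass in the other alternatives, among them limma-voom and every fit with 1 library left out. Without the filter its log2 fold change was nearly unchanged (-0.926), while 156 genes were called higher and 237 lower over all genes. ATF5, a factor of the mitochondrial unfolded protein response, had 55.83, 52.32 and 56.93 CPM in PQ+SS-31, against 66.21, 56.83 and 64.03 CPM in PQ.

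Of 10 regulators of nuclear genes for mitochondria, 0 passed and 3 were positive, with a median of -0.06. NRF1, a transcription factor that binds promoters of many import genes, had 11.51, 10.21 and 10.54 CPM in PQ+SS-31, against 12.93, 13.53 and 12.21 CPM in PQ. The nuclear receptor ESRRA had 96.04, 89.49 and 90.52 CPM in PQ+SS-31, against 116.5, 104.6 and 97.47 CPM in PQ. In both genes every PQ+SS-31 library lay below every PQ library, as in 8.86% of all tested genes. PPARGC1A, a coactivator of mitochondrial biogenesis named here after its values were seen, had 1.678, 2.375 and 2.096 CPM in PQ+SS-31, against 1.424, 1.454 and 1.396 CPM in PQ. Its PQ+SS-31 libraries all lay above those of PQ (log2 fold change 0.52 ± 0.26, SE, edgeR adjusted p = 0.513), as in 9.16% of all tested genes. PPARGC1A had few counts, reaching at most 2.375 CPM. The edgeR adjusted p-values of NRF1 and ESRRA were 0.472 and 0.441. In these 5 lists together, DDIT3 was the only gene that passed under any of the alternatives run.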

How the data were processed

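Gene counts of the 6 libraries, not normalized, came from 1 table deposited by the authors. The submitters' processing notes name the counter featureCounts 1.5.0-p3, the aligner HISAT2 2.0.5, CASAVA and DESeq2 1.20.0, and also the mouse build mm10. All 58735 gene IDs are nevertheless human and match GENCODE 29 (GRCh38) in position and strand. Kit, strand and overlap settings are not given in the sources used here. Columns were matched to titles by group letter and replicate number.

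edgeR's filterByExpr kept 15550 genes, which were scaled with TMM factors and tested by quasi-likelihood F-test (R 4.3.3, edgeR 4.0.16), with group as the only term, Benjamini-Hochberg adjustment over all tested genes and a threshold of 0.05. SE and 95% intervals come from that test, and CPM per kb uses the deposited gene length. DESeq2 1.42.0 and limma-voom (limma 3.58.1) were alternatives, with other scalings, filters, gene sets, the replicate number as a term, GC and length offsets (loess, span 0.5; 15541 genes) and each library left out. Coding sequences were aligned with Biopython 1.88. On counts simulated for this comparison over 15550 genes, the test found 43 of 100 genes given a 1.5-fold change and 93 of 100 given a 2-fold one, with 10 unchanged genes among 146 calls. Genes given a change were drawn above a minimum mean level, so genes with few counts were not covered. Counts were drawn for each gene independently, without differences between replicates that are shared by many genes. Replicates differed by more than sampling noise (chi-square of 7.32 to 35.6 per degree of freedom).

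Values in every library are given for the 4 members with the smallest p on each side, the most abundant member of each role group and 10 paralog or partner pairs, and for 2 genes by smallest p from each neighbouring list. SAMM50, PAM16, TIMM21, TIMM50 and TOMM7 were added after their values were seen. Members and lists were chosen with earlier results of these data known.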

Additional observations from a re-analysis of the deposited data

How the results depend on the processing

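No import gene passed the threshold under any of the 18 alternatives, and 19 of the 35 tested members kept the sign of their fold change in every alternative that tested them, with 16 changing sign in at least 1. TOMM5, among the 19, was not tested under the 1 CPM filter. How many of all tested genes kept their sign was not counted, so these counts were not read as particular to the members. HSPA9 stayed between -0.28 and -0.20 on the log2 scale, with a lowest adjusted p of 0.15, without PQ replicate 3. TOMM34 stayed between -0.21 and -0.14 and CHCHD4 between 0.14 and 0.25. PAM16 ranged up to 1.01, reached without PQ replicate 3, and the cause was not tested. The members' median was between -0.0211 (without PQ+SS-31 replicate 1) and 0.0724 with 1 library left out. Under leave-one-out the median log2 fold change of surveillance linked to import lay between -0.092 and -0.00861, the last without PQ+SS-31 replicate 1. The lists of matrix chaperones and proteases and of regulators ranged from 0.0104 to 0.0737 and from -0.0799 to -0.0293, and that of cytosolic handling from -0.0714 to 0.000153.

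Counts over all genes moved with the processing. With 0.592% of all tested genes called in the main fit, few calls or none would be expected in a list of 35. The steady 0 of the members was therefore not read as greater stability. Against 20 higher and 72 lower in PQ+SS-31, the counts over all genes were 156 and 237 with no filter, 71 and 152 with GC and length offsets, and 123 and 209 with DESeq2. Higher genes were 13 with library size alone and 36 with protein-coding genes alone. With 1 library left out, 0 to 125 were higher and 0 to 203 lower, the most without PQ replicate 3. In the surveillance list, 1 gene (DDIT3) was lower with no filter, with DESeq2 and with offsets, alone or with the replicate block.

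The replicate block gave 66 higher and 134 lower over all genes and 0 members, and with offsets 153 and 256. Same-numbered libraries correlated at -0.0923, 0.392 and 0.191 in their deviations from group means, and PQ+SS-31 replicate 1 and PQ replicates 1 and 3 correlated best with another number, so the numbers were not taken as pairs. In simulated counts 43 of 100 changes of 1.5-fold were found, with the changed genes drawn above a minimum level. TOMM5, TOMM6, TOMM20L and PAM16 had too few counts for a statement, and PAM16 also varied widely between its PQ libraries.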
